A study of Mus musculus with 5 samples.

Results

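The cells described here are the basal epidermal cells of the embryonic mouse limb, taken from scRNA-seq of forelimb and hindlimb. They were chosen by a gate on measured values. A cell was kept with 100 to 9000 detected genes and at most 10% mitochondrial UMIs (unique molecular identifiers, each counting 1 captured RNA molecule). It then needed a UMI of 4 or more of 6 epithelial genes (*Krt5*, *Krt14*, *Trp63*, *Cdh1*, *Perp* and *Dsp*) and UMIs of at most 1 of 4 differentiation genes (*Krt1*, *Krt10*, *Krtdap* and *Sbsn*). The gate took 64 of 25865 kept forelimb cells and 57 of 23936 kept hindlimb cells, 121 of the 49801 kept limb cells and of the 69434 kept cells in the series. The gated share was 0.247% in forelimb (exact 95% binomial interval 0.191 to 0.316%) and 0.238% in hindlimb (0.180 to 0.308%).

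The study sequenced 5 single-cell libraries to compare the developing penis bone with the limb bones. The limb libraries, 1 of forelimb and 1 of hindlimb, came from male embryos collected 15 days after copulation. The 3 penis libraries came from males at postnatal day 6 (P6) from which the prepuce had been removed, and the study's methods give 3 males of 2 litters. The labels give the C57BL/6N background for every library, the methods name C57BL/6J, and no allele or treatment was applied in any group. The methods give 6 male embryos for the limbs, and how they were divided over the limb libraries is not stated in the sources used here. The limbs are therefore 2 different tissues with 1 library each, and the p-values of the limb and penis test measure only the spread between these libraries, which may be technical.

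The basal layer is the deepest layer of the epidermis and holds its dividing keratinocytes. Its cells build their filaments from the keratin pair Krt5 and Krt14, need the transcription factor Trp63 to become epidermis, and are tied to the basement membrane by hemidesmosomes. Cells that leave the layer switch to Krt1 and Krt10, and in the embryo the epidermis is covered by the periderm, a flat and temporary outer layer.

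The gated cells carried 471577 UMIs in forelimb and 427738 in hindlimb. Their median was 5804.5 and 6442 UMIs per cell, against 4735 and 5450 in the other kept limb cells. Their median mitochondrial share was 5.49% and 5.32%, against 3.60% and 3.46%. The 5 deepest gated cells held 18.4% of the gated UMIs in forelimb and 22.9% in hindlimb. The limb libraries shared 203 barcodes with each other, 1 of them a gated forelimb cell and 3 gated hindlimb cells, and none was gated in both. Values below are CPM, the UMIs of a gene summed over the cells of a set in 1 library, divided by all UMIs of that set and scaled to a total of 1e+06. A CPM of a sum does not separate the number of cells with a gene from the RNA of the gene per cell, and intervals cover counting error only.

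The label held for most of the gated cells and failed for at least 13 of them. It is also uncertain for 14 forelimb and 6 hindlimb gated cells with 4 or more of 6 mesenchyme genes, a few of them among the 13. All 6 mesenchyme genes were found in 8 forelimb and 3 hindlimb gated cells. A further 2 forelimb gated cells had 3 or more of 5 melanocyte genes. Of 12 epidermal genes that the gate does not use, all 12 were at least 2-fold higher in the gated cells than in the other kept limb cells in both libraries. Over all 27718 genes with a UMI that share was 1.97%, and 3.48% were as much higher in the other cells. The gate made this contrast, so it is a description with no test. A set of 13 cells had abundant *Krt4* and *Krt19* and no UMI of *Trp63* or *Col17a1*. These cells are described on their own below, and the main results that rest on them are given with and without them.

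The 6 genes of the gate had similar levels in the limbs. *Krt5*, on chromosome 15 at chr15:101707069-101712905 in the mouse build GRCm38, had 1211 CPM in forelimb and 1223 CPM in hindlimb, against 11.7 and 10.6 in the other kept limb cells. *Krt14*, its filament partner, had 1588 and 1405 CPM. *Trp63*, the transcription factor of stratified epithelia, had 286 and 295 CPM. Among the genes of cell contacts, *Perp*, a desmosomal membrane protein, had 380 and 374 CPM, *Dsp*, the desmosomal plaque protein, 382 and 346 CPM, and *Cdh1*, the adherens junction cadherin of epithelia, 93.3 and 112 CPM. The gate chose the cells by these 6 genes together, so their high levels are no result, although it required no single one of them.

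The gate's edge was not sharp. The cells just inside it, with 4 of the 6 epithelial genes, were 33 in forelimb and 26 in hindlimb, and those just outside, with 3 of the 6, were 39 and 35. *Krt15*, a keratin of basal cells that the gate does not use, had 3827 CPM just inside and 1852 CPM just outside in forelimb, and 7457 and 1358 CPM in hindlimb. Most of these *Krt15* UMIs lay in cells rich in *Krt4* and *Krt19*, described below, which were left out on both sides as well. The cells were then 29 inside and 36 outside in forelimb and 20 and 29 in hindlimb, and *Krt15* had 1230 and 696 CPM in forelimb and 946 and 330 CPM in hindlimb. Also without these cells, *Col17a1*, the collagen of hemidesmosomes, had 199 and 70.3 CPM in forelimb and 145 and 57.9 CPM in hindlimb. *Col2a1*, the cartilage collagen, ran the other way with 44.1 CPM inside and 1163 outside in forelimb, and 10.4 and 249 CPM in hindlimb. On the other limit, cells with 1 differentiation gene numbered 30 and 25, and cells with 2 numbered 13 and 18.

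UMIs of free RNA were low for the epidermal genes. Endothelial cells of the same libraries, which should lack them, were taken as the level of background (396 forelimb and 321 hindlimb cells with UMIs of 4 or more of 6 endothelial genes, median 6686.5 and 8904 UMIs). *Krt14* had a UMI in 92.2% of gated forelimb and 91.2% of gated hindlimb cells, and in 3.79% and 2.49% of the endothelial cells. *Col17a1* had a UMI in 56.2% and 59.6% of gated cells, against 4.80% and 4.67%. After thinning each cell to 2000 UMIs, which kept 59 forelimb and 53 hindlimb gated cells, *Col17a1* was at 34.6% and 31.1%, against 0.962% and 1.11%. The adult alpha globin *Hba-a1*, a red blood cell gene, had a UMI in 71.9% and 59.6% of gated cells and in 71.7% and 73.5% of endothelial cells. By this share of cells it was near or below the background. Its summed level was uneven, with 1542 CPM in gated forelimb and 145 CPM in gated hindlimb cells, and 338 of its 727 forelimb UMIs lay in 1 cell.

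Beside the gate genes, a mixture of filament, adhesion and signalling genes set the gated cells apart. Genes were ranked by the smaller of the forelimb and hindlimb folds over the other kept limb cells, with 5 CPM added to each level. The first was *Krt15*, with 2892 CPM in forelimb and 2948 in hindlimb, against 36.1 and 30.6 in other cells, a fold of 70.4 and 82.9. *Kcnh7*, a voltage-gated potassium channel best known from neurons, had 437 and 641 CPM against 6.48 and 4.59, a fold of 38.5 and 67.3. It came from 25 gated forelimb and 23 gated hindlimb cells. *Wnt6*, a ligand of the surface ectoderm, had 223 and 255 CPM against 4.36 and 2.52, a fold of 24.3 and 34.5. *Col17a1* was 32.0-fold and 24.8-fold higher, and *Epcam*, an epithelial adhesion protein, 40.2-fold and 24.4-fold. Suprabasal limb cells, which passed the epithelial limit with 2 or more differentiation genes, shared several of these genes. Against suprabasal cells, the smaller fold of each of the first 30 genes, *Kcnh7* and *Wnt6* included, was at most 2.14. Thinned to 2000 UMIs, *Krt15* had a UMI in 81.5% and 79.6% of gated and 69.1% and 64.9% of suprabasal cells, *Epcam* in 45.3% and 40.5% against 34.0% and 32.0%, and *Fgfbp1*, an FGF carrier, in 23.8% and 30.3% against 48.7% and 32.5%.

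Other genes among the 30 leading ones fell into a few kinds. The transcription factors were *Grhl2* and *Tfap2b*, both regulators of surface ectoderm, and *Lmo1*, a transcriptional cofactor. *Tfap2b* had 297 CPM in forelimb and 327 in hindlimb, and *Grhl2* 102 and 103. The signalling genes were *Wnt6*, *Wnt3*, the Wnt inhibitor co-receptor *Kremen2*, the chemokine *Cxcl14* and the FGF carrier *Fgfbp1*. *Cxcl14* had 1546 and 1545 CPM, against 104 and 98.1 in the other cells. Adhesion genes included *Gjb2*, a gap junction channel, with 134 and 105 CPM against 0.700 and 0.996, and *Fermt1*, the kindlin that activates integrins in keratinocytes, with 72.1 and 112 CPM. *Lgals7*, a lectin of stratified epithelia, had 833 and 680 CPM.

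**Figure D1:**
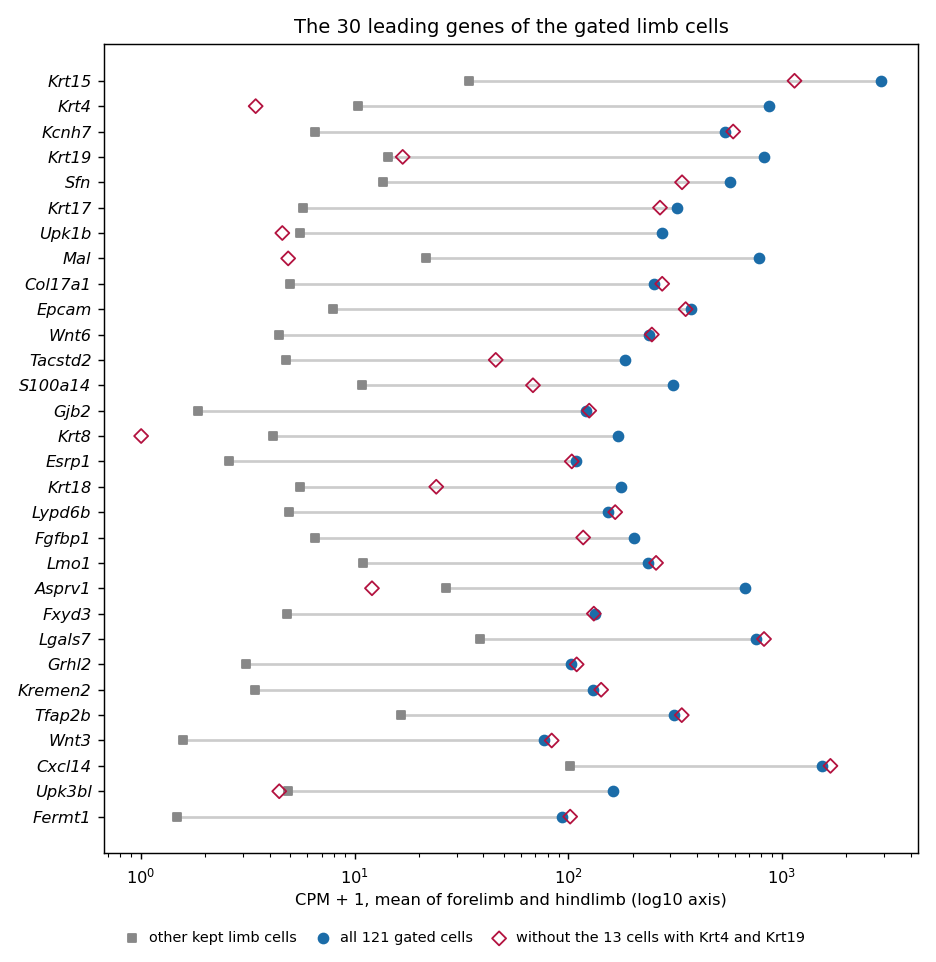
Mean CPM of forelimb and hindlimb (CPM + 1, log10 axis) of the 30 leading genes, for all 121 gated cells (blue circles), for the gated cells without the 13 cells with *Krt4* and *Krt19* (red diamonds) and for the other kept limb cells (grey squares). Genes such as *Krt4*, *Krt19*, *Krt8*, *Mal* and *Upk1b* drop from circle to diamond (11 genes drew more than 50% of their UMIs from the 13 cells), while *Kcnh7*, *Col17a1* and *Wnt6* stay in place.

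The gated cells split on their keratins. Members with 5 or more UMIs of *Krt4* and *Krt19* together were 5 in forelimb and 8 in hindlimb, and the next member had 2. This limit was set after the values were seen, and the split is a description with no test. *Krt4*, a keratin of wet and transitional squamous epithelia, and *Krt19*, a keratin of simple and some stratified epithelia, together had 18 to 304 UMIs per cell in the 5 forelimb cells (median 93) and 5 to 266 in the 8 hindlimb cells (median 94). The 13 cells held 7.28% of the gated UMIs in forelimb and 9.59% in hindlimb.

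**Figure D2:**
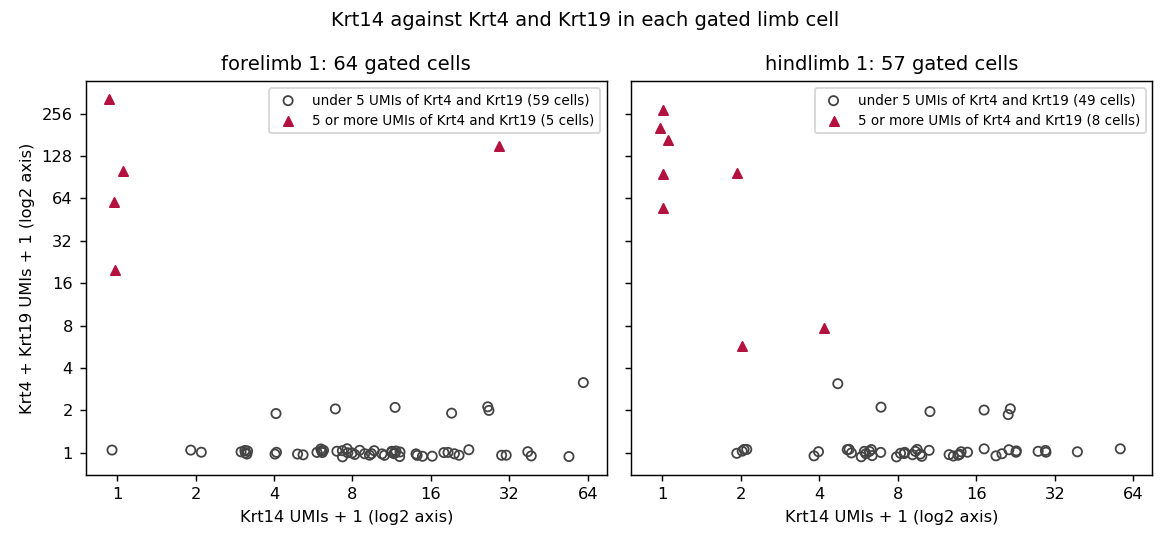
UMIs of *Krt14* (x axis) against summed UMIs of *Krt4* and *Krt19* (y axis) in each gated cell, with 1 added, log2 axes and a small random shift of each point, forelimb on the left and hindlimb on the right. The 5 and 8 cells with *Krt4* and *Krt19* (red triangles) lie apart from the 59 and 49 other cells (open circles), and most of them sit at 0 UMIs of *Krt14*.

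*Trp63* and *Col17a1* had no UMI in these 13 cells, and *Krt14* was found in few of them. In forelimb 1 of the 5 had a UMI of *Krt14* and in hindlimb 3 of the 8, whereas 58 of 59 and 49 of 49 of the others did. *Trp63* had a UMI in 44 of 59 and 33 of 49 others, and *Col17a1* in 36 of 59 and 34 of 49. The 13 cells held only 34347 UMIs in forelimb and 41037 in hindlimb, so a low level of either gene was not detectable at this depth. All 13 had *Krt5*, with 2 to 16 UMIs in forelimb and 3 to 33 in hindlimb.

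They were rich in other keratins and in surface genes. *Krt15* ranged from 93 to 219 UMIs per cell in forelimb (median 136) and from 11 to 355 in hindlimb (median 64), against medians of 8 and 5 in the other gated cells. *Krt8* and *Krt18*, the keratin pair of simple epithelia, followed. *Krt8* had UMIs in 4 of the 5 and 6 of the 8 cells and in none of the 108 others, and *Krt18* in 4 of 5 and 7 of 8 against 7 of 59 and 8 of 49. *Mal*, a membrane-sorting protein of apical epithelia, had 372 and 328 UMIs in these cells, *Upk1b*, a uroplakin of the urothelial surface, 144 and 100, and *Asprv1*, a protease of the upper epidermis, 231 and 353. Of the 4 differentiation genes, of which the gate allows 1 per cell, *Krt1* and *Krt10* had no UMI in them, *Krtdap* had a UMI in 2 of the 5 and 1 of the 8 cells, and *Sbsn* in 2 of 5 and 3 of 8. A list of 10 periderm genes summed to 27542 and 32117 CPM in these cells, against 766 and 597 CPM in the other gated cells. In each limb 9 of the 10 were found in them. The list holds *Krt4* and *Krt19*, which chose the cells, and whether the cells are periderm was not tested.

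The promoters of 4 genes were taken from RefSeq (GRCm38.p6), 250 bases ending just before the annotated start. *Krt5* marks all gated cells, *Col17a1* only cells outside the 13, and *Krt8* and *Krt18* are the keratin pair of the 13. Capitals mark matches, on either strand, to a TATAAA box, to the AP-2 motif GCCNNNGGC, to the CACCC motif, which is CCACCC or, on the other strand, GGGTGG, and to the AP-1 motif, which is TGA and TCA with any 1 base between. Bases are printed 5′ to 3′ on the strand of the gene.
*Krt5* (chr15:101712906-101713155, minus strand): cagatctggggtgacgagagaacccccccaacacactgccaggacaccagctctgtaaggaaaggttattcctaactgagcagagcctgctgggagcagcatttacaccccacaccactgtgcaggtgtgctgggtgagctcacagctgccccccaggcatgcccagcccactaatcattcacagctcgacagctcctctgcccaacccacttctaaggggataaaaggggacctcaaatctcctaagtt
*Col17a1* (chr19:47692043-47692292, minus strand): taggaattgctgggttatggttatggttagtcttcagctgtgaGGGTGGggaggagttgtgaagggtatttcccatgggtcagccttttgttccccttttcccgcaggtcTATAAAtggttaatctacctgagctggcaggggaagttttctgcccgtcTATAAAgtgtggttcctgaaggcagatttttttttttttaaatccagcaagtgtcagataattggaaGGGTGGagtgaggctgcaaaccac
*Krt8* (chr15:102004343-102004592, minus strand): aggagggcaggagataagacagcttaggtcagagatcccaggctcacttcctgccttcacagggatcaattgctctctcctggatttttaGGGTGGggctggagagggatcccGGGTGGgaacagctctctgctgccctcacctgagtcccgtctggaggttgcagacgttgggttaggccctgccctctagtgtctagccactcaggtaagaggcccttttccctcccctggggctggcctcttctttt
*Krt18* (chr15:102027966-102028215, plus strand): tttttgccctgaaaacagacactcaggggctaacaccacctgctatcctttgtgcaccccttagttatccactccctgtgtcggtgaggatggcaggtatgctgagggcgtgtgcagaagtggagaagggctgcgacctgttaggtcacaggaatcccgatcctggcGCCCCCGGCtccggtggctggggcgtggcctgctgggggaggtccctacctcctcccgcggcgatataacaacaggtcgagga
The window of *Krt5* held none of these letters. *Col17a1* held TATAAA beginning 140 and 91 bases before the start and GGGTGG at 207 and 24 bases. *Krt8* held GGGTGG at 160 and 137 bases, and *Krt18* held GCCCCCGGC at 83 bases. Among 32851 promoter windows of this length, 12.4% held TATAAA, 13.7% the AP-2 motif, 28.1% the CACCC motif and 6.75% the AP-1 motif, so each match is common and is given only as a description.

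Several summed levels rest on these 13 cells. They supplied 63.6% of the *Krt15* UMIs of all gated limb cells, 99.7% of *Krt4*, 98.2% of *Krt19*, 100% of *Krt8*, 87.9% of *Krt18*, 99.6% of *Mal* and 98.5% of *Asprv1*. Of the 30 leading genes, 11 drew more than 50% of their UMIs from them, and 19 of the 30 were leading genes again without them. *Krt15* then had 1397 and 890 CPM and moved from the first to the third in rank, behind *Kcnh7* and *Col17a1*. By the same limit on *Krt4* and *Krt19*, the gated cells of the penis libraries held 2, 5 and 2 such cells. In each limb and penis comparison without the 13 cells, these penis cells were left out as well. The limit alone does not show that they are the same kind of cell. All gated penis cells together had 0 UMIs of *Cnfn* and 28 of *Asprv1*, against 238 and 593 in the gated limb cells. A list of 10 genes of dissociation stress summed to 3698 CPM in the 5 forelimb cells and 6116 CPM in the 8 hindlimb cells. It had 2269 and 2527 CPM in all gated cells and 2157 and 2146 CPM without the 13. The other kept limb cells had 3586 and 3515 CPM, near the value of the 5 forelimb cells. The part of stress in the split was not tested.

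The spread between gated cells followed the same genes. Across 3055 genes, the variance of the UMIs over what counting at each cell's depth gives had a median ratio of 1.24 in forelimb and 1.23 in hindlimb. Ranked by the smaller of the forelimb and hindlimb ratios, the leading genes were *S100a6*, *Mal*, *Anxa1*, *Krt15* and *Krt19*. *S100a6*, a calcium-binding protein, had a median of 0 UMIs per gated cell and up to 287 in 1 forelimb and 227 in 1 hindlimb cell. *Col2a1* was uneven through single cells. Of its UMIs, 39 of 49 in forelimb and 40 of 52 in hindlimb lay in 1 cell each.

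Genes of other cell types were present in the gated cells, below their level in the other kept limb cells for mesenchyme, endothelium and red blood cells. The 6 mesenchyme genes summed to 2176 CPM in forelimb and 1064 in hindlimb, against 8546 and 7785 CPM in the other kept limb cells. Gated cells with 4 or more of the 6 were 14 in forelimb and 6 in hindlimb, with medians of 12301.5 and 11871 UMIs against 4572.5 and 6050 in the others. Of the gated cells, 9 and 14 had no mesenchyme gene. Endothelial genes summed to 138 and 46.8 CPM, with *Emcn* at 0 in both libraries, and 5 red blood cell genes to 4733 and 433 CPM against 27904 and 31058. The beta globin *Hbb-bs*, which is not in that list, had 5848 CPM in gated forelimb cells, above *Krt15*, and 568 CPM in gated hindlimb cells, against 31764 and 33504 CPM in the other cells. Of 6 Merkel cell genes, *Atoh1*, *Sox2*, *Krt20* and *Insm1* were at 0 in both libraries. *Isl1* had 2.12 and 0 CPM, and *Piezo2* was found in both libraries. The 6 genes summed to 63.6 and 49.1 CPM, against 167 and 207 CPM in the other kept limb cells. The part of these UMIs in the results below was not tested, beyond the alternative without the cells with mesenchyme genes.

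Genes of the dorsal and ventral limb ectoderm each marked few cells. *Wnt7a* is the dorsal ectoderm ligand and *En1* the ventral ectoderm repressor of *Wnt7a*. *Wnt7a* without *En1* was found in 7 gated cells of each limb, *En1* without *Wnt7a* in 7 forelimb and 2 hindlimb cells, both in 0 and 2 cells, and neither in 50 and 46. *Kcnh7* had 52 UMIs in 6 of the 7 *Wnt7a* cells of forelimb (610 CPM) and 87 UMIs in 4 of 7 in hindlimb (1005 CPM), against 2 UMIs in 1 of 7 *En1* cells of forelimb (32.2 CPM) and none in the 2 of hindlimb. The 2 hindlimb cells with both genes had 1 UMI of *Kcnh7* (28.5 CPM). Cells with neither gene had 469 and 658 CPM. At these cell numbers the split is a description, and 432 of 5635 genes (7.67%) were at least 2-fold higher in *Wnt7a* cells in both libraries and 222 (3.94%) in *En1* cells. More genes, 586, were at least 2-fold apart in opposite directions in forelimb and hindlimb.

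Markers of other ectodermal structures ranged from absent to common. *Fgf8*, the ligand of the apical ectodermal ridge, and *Foxi3*, a hair placode factor, had no UMI in the gated cells. *Sp8*, a factor of the ridge and limb ectoderm, had 21.2 and 14.03 CPM from 9 and 5 cells. *Shh*, a placode ligand, was found in 1 and 2 cells and *Lhx2* in 4 and 1. *Edar*, the placode receptor of ectodysplasin, had 33.9 CPM in 9 forelimb cells and 58.4 CPM in 15 hindlimb cells. Of the same list of hair placode genes, *Sostdc1*, a secreted inhibitor of Wnt and BMP signals, had a UMI in 24 and 21 cells, and *Lef1*, the nuclear partner of beta-catenin, in 36 and 31.

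Differentiation genes separated the gated cells from limb cells that passed the epithelial gate with 2 or more differentiation genes, of which there were 45 in forelimb and 60 in hindlimb. Both sets are made by the gate, so the comparison is a description. *Ly6d*, a surface protein of stratifying epithelia, had 23.3 CPM in gated and 1097 CPM in suprabasal forelimb cells, and 14.03 and 1525 CPM in hindlimb. *Lor*, a protein of the cornified envelope, had 23.3 and 254 CPM in forelimb and 49.1 and 595 CPM in hindlimb. The gated cells were higher in *Crabp1*, a retinoic acid binding protein, with 84.8 against 11.1 CPM in forelimb and 91.2 against 28.6 CPM in hindlimb, and in *Limch1*, an actin regulator, with 117 against 41.1 and 117 against 37.7 CPM.

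Many gated limb cells were dividing. After thinning to 2000 UMIs, 39.2% of gated forelimb cells (exact 95% interval 26.5 to 52.6%, 59 cells) and 44.7% of gated hindlimb cells (31.6 to 59.6%, 53 cells) had UMIs of 2 or more of 10 division genes. Without the 13 cells with *Krt4* and *Krt19* it was 41.0% and 51.5%. In the suprabasal limb cells it was 30.6% and 38.9%, and in all other kept limb cells 20.8% and 19.5%. Penis cells of the same gate had 14.9%, 9.92% and 9.76%, and the other kept penis cells 5.96%, 5.41% and 5.70%. Both limb values lay above all 3 penis values. The difference had an exact two-sided permutation p of 0.1, the smallest that the 10 splits of 5 libraries allow. Without thinning the limb shares were 54.7% and 61.4%, and those of suprabasal limb cells 44.4% and 66.7%. Of the 13 cells with *Krt4* and *Krt19*, 1 forelimb cell had *Mki67* and *Top2a* and no hindlimb cell had either.

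Gated cells were scarcer in limb than in penis. The same gate took 1.25%, 1.42% and 1.31% of kept penis cells (85, 101 and 75 cells), against 0.247% and 0.238% of kept limb cells (exact two-sided permutation p 0.1, the smallest possible). Penis cells were kept at 500 to 6000 genes and at most 5% mitochondrial UMIs. With the limits of the limb cells the gate took 1.37%, 1.62% and 1.69% of penis cells. A gate that allowed no differentiation gene took 0.279%, 0.464% and 0.332% of penis cells against 0.131% and 0.134% of limb cells. The gated penis cells were deeper, with medians of 11535, 10210 and 10026 UMIs, and had median mitochondrial shares of 3.05%, 2.81% and 3.43%. The part of these differences in the results below was not tested. Tissue, age and library preparation cannot be told apart in any limb and penis comparison below.

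UMIs summed per library over the gated cells were compared between limb (2 libraries) and penis (3 libraries) with the quasi-likelihood test of edgeR and Benjamini-Hochberg adjustment. A gene was called at an adjusted p under 0.01 and an absolute log2 fold change over 1. Of 9152 genes tested, 180 (1.97%) were higher in limb and 280 (3.06%) lower, with a median log2 fold change of -0.02 over all genes. Without the forelimb library the counts were 73 and 124, without the hindlimb library 75 and 114. The lone limb library is then assumed to vary like the penis libraries. With the limits of the limb cells in penis the counts were 217 and 294. With a gate that allowed no differentiation gene, which left 34 and 32 limb cells and 19, 33 and 19 penis cells, they were 13 and 27. Of the 30 genes chosen by size, 16 kept the call under each of the 18 alternatives that gave them a value. With a robust prior in edgeR, an alternative chosen after seeing the data, *Cnfn*, *Cma1*, *Cpa3*, *Krt4*, *Krt18*, *Col17a1* and *Ube2c*, all given below, were not called.

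The gate chose the cells of both tissues by its 10 genes, so their levels are a description with no test. *Krt5* had 1211 and 1223 CPM in limb and 2049, 1606 and 1893 CPM in the penis libraries. Values after ± in this comparison are standard errors.

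Among the genes far higher in limb, *Kcnh7* and *Lef1* came from many cells. *Kcnh7* had 437 and 641 CPM in limb and 0, 0.920 and 0 CPM in the penis libraries, a log2 fold change of 9.90 ± 0.39 (edgeR adjusted p 1.78e-07). *Lef1*, the nuclear partner of beta-catenin in Wnt signalling and a factor of hair placodes, had 248 and 281 CPM against 11.7, 0 and 5.48, a log2 fold change of 5.47 ± 0.45 (edgeR adjusted p 2.52e-05). It had a UMI in 36 forelimb and 31 hindlimb cells. *Kremen2* had 104 and 154 CPM against 5.31, 6.44 and 2.74 (log2 fold change 4.54 ± 0.34), and *Gjb2* 134 and 105 CPM against 7.44, 9.20 and 2.74 (4.02 ± 0.34). *Col19a1*, a minor collagen, had 123 and 206 CPM against 0, 1.84 and 1.37 (6.94 ± 0.47), and *Mybpc1*, a myosin-binding protein of slow muscle, 89.1 and 187 CPM against 2.13, 0 and 0 (7.18 ± 0.60). Each of these genes kept its call when any single library was left out.

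Further genes of this group were *Lrp1b*, *Ebf2* and *Macrod2os1*, with log2 fold changes of 5.24, 4.78 and 4.37. *Ebf2*, a factor of mesenchymal lineages, had 82.7 and 51.4 CPM against 2.13, 3.68 and 0, and 20 of its 61 limb UMIs lay in 1 cell. Without the forelimb library its log2 fold change was 4.39 with an edgeR adjusted p of 0.013.

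Other genes far higher in limb drew most of their UMIs from the 13 cells or from a single cell. *Cnfn*, a protein of the cornified envelope, had 134 and 409 CPM in limb and 0 in all 3 penis libraries, at least 243-fold higher against 3 UMIs over the penis group, and 99.2% of its limb UMIs came from the 13 cells. *Serpinb11*, a serine protease inhibitor, drew 100% from them, *Asprv1* 98.5% and *Slc2a3*, a glucose transporter, 81.8%. Their log2 fold changes were 6.39, 5.94 and 6.06. Without the 13 cells *Serpinb11* had no UMI in limb and *Asprv1* 9.15 and 12.9 CPM, and both were too low to test. *Slc2a3* then had 48.0 and 69.8 CPM in limb, and it was still called (log2 fold change 3.66). *Cma1* and *Cpa3*, proteases of mast cells, had 380 and 267 CPM in forelimb and 16.4 and 14.03 CPM in hindlimb. *Cma1* was not called without penis 3 (edgeR adjusted p 0.015) and was too low to test without the forelimb library. A single forelimb cell held 91.4% of the limb *Cma1* UMIs and 90.2% of *Cpa3*.

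**Figure D3:**
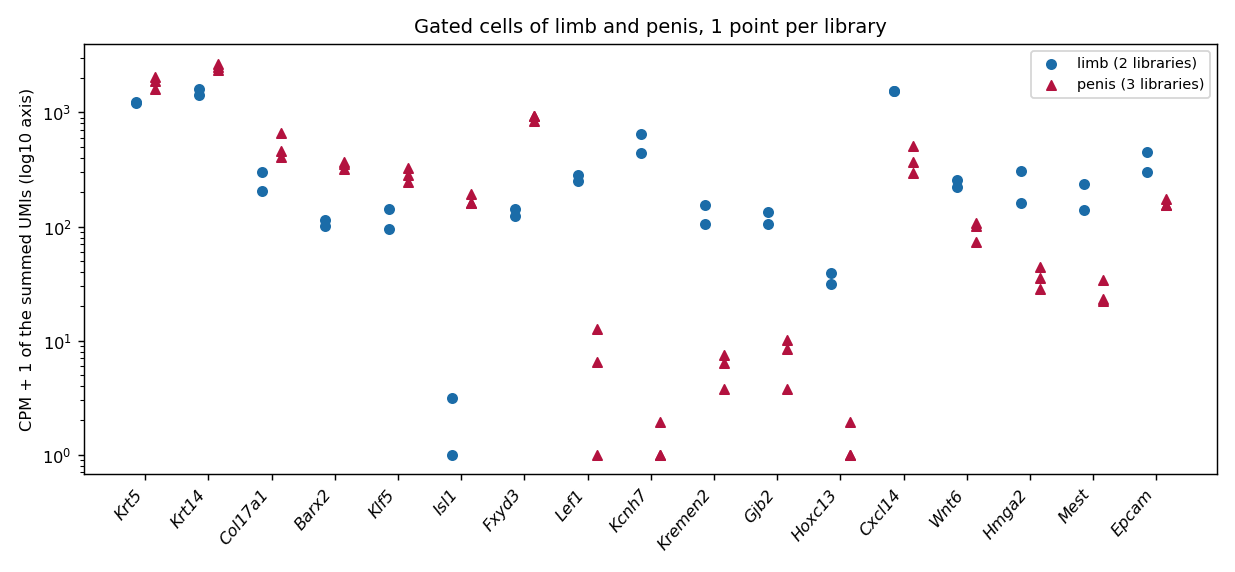
CPM + 1 (log10 axis) of 17 genes in the gated cells, 1 point per library, with the 2 limb libraries as blue circles and the 3 penis libraries as red triangles. The groups lie close for *Krt5* and *Krt14*, while *Isl1*, *Fxyd3* and *Barx2* sit lower in limb and *Lef1*, *Kcnh7*, *Gjb2* and *Hoxc13* higher.

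Genes far lower in limb were mostly at or near 0 there. *Isl1*, a homeodomain factor of the genital tubercle and of the hindlimb field, had 2.12 and 0 CPM against 158, 158 and 191 (log2 fold change -7.11 ± 0.46). *Dapl1*, a gene of differentiating epithelia, was at 0 in both limb libraries and at 205, 220 and 239 CPM in penis, at least 65.9-fold lower against 3 UMIs over the limb group. *Hoxd8*, a patterning gene, was at 0 against 45.7, 49.7 and 54.8 CPM, at least 14.9-fold lower. The transmembrane protein *Tmem45a2*, the choline transporter *Slc5a7* and the growth factor relative *Fgf14* were also at 0 in limb, at least 24.9-fold, 21.9-fold and 15.1-fold lower. *Fgf14* lost its call without the forelimb library (edgeR adjusted p 0.0112) and without the hindlimb library (0.0125).

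Further genes were far lower in limb. *Gria4*, a glutamate receptor subunit, had 0 and 9.35 CPM in limb and 606, 542 and 655 CPM in penis, a log2 fold change of -7.09 ± 0.39. *Chrm3*, a muscarinic receptor, had 0 and 2.34 CPM against 152, 72.7 and 108, and *Tac1*, the precursor of substance P, 2.12 and 2.34 CPM against 216, 146 and 151. *Cyp2t4*, *Kcnh1*, *Tmem266*, *Tmem117* and *2600014E21Rik* had log2 fold changes from -6.96 to -5.63. With the gate at 3 of 6 epithelial genes, *Chrm3* was at -2.26 and *Tac1* at -2.22, and neither was called (edgeR adjusted p 0.0506 and 0.0173).

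The keratins showed how the 13 cells move a list. Of 12 tested keratins outside the gate, 6 were higher in limb and 1 lower, against 1.97% and 3.06% of all genes tested. The keratins had a median log2 fold change of 2.07. Those higher were *Krt4*, *Krt6a*, *Krt8*, *Krt18*, *Krt19* and *Krt78*. *Krt18* lost its call without the forelimb library (edgeR adjusted p 0.0229) and without the hindlimb library (0.0740), *Krt8* without the hindlimb library (0.0329), and *Krt78* was too low to test without any one library but penis 3. The 13 cells were chosen by 2 of these keratins, *Krt4* and *Krt19*, after the values were seen, so the counts without them are a description. Without the 13 cells and the penis cells of the same limit, no keratin was higher and 2 were lower. The median was then 0.12, with *Krt4*, *Krt8* and *Krt78* too low to test. *Krt15* went from -0.09 to -1.29 and was then called lower (edgeR adjusted p 0.000838), but the 13 cells had held 63.6% of its limb UMIs. *Krt6a*, a keratin of periderm and of hair follicle companion cells, went from 2.31 to -0.96. *Krt79*, a keratin of sebaceous and follicle ducts, had 2.12 and 2.34 CPM in limb against 59.5, 80.0 and 45.2 CPM and was called lower either way (-4.79 and -5.65).

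Among the genes that anchor the layer, some were lower in limb. Hemidesmosomes had 1 gene lower and none higher of 6 tested, with a median log2 fold change of -0.67. *Col17a1* had 297 and 206 CPM in limb and 460, 409 and 665 CPM in penis, -1.08 ± 0.22 (edgeR adjusted p 0.00854). The integrin subunits *Itga6* and *Itgb4* had -0.62 and -0.61 and were not called. Of 19 basement membrane genes tested, 7 were lower and 1 higher (median -0.38), against 3.06% and 1.97% of all genes tested. Those lower included the laminin chains *Lama3* (-1.09) and *Lamb3* (-1.70), the anchoring fibril collagen *Col7a1* (-1.80), the collagen IV chains *Col4a5* (-1.24) and *Col4a6* (-1.60), and *Npnt* (-1.11), an integrin ligand.

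*Frem1*, a matrix protein of the embryonic epidermal basement membrane, was the higher one, with 40.3 and 25.7 CPM against 2.13, 1.84 and 1.37 (log2 fold change 4.00 ± 0.58). Its partners *Fras1* and *Frem2* had 0.28 and 0.77 and were not called. The laminin chains *Lama5*, *Lamb1* and *Lamc1* had 0.25, 0.38 and -0.16 and were not called. These calls are near the limits. None of the called anchoring genes named here kept the call under every omission of 1 library, with edgeR adjusted p of up to 0.118 where it was lost, and no log2 fold change turned sign. Without the forelimb library *Col17a1* was at -1.39 (edgeR adjusted p 0.0177) and without the hindlimb library at -0.83 (edgeR adjusted p 0.118).

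**Figure D4:**
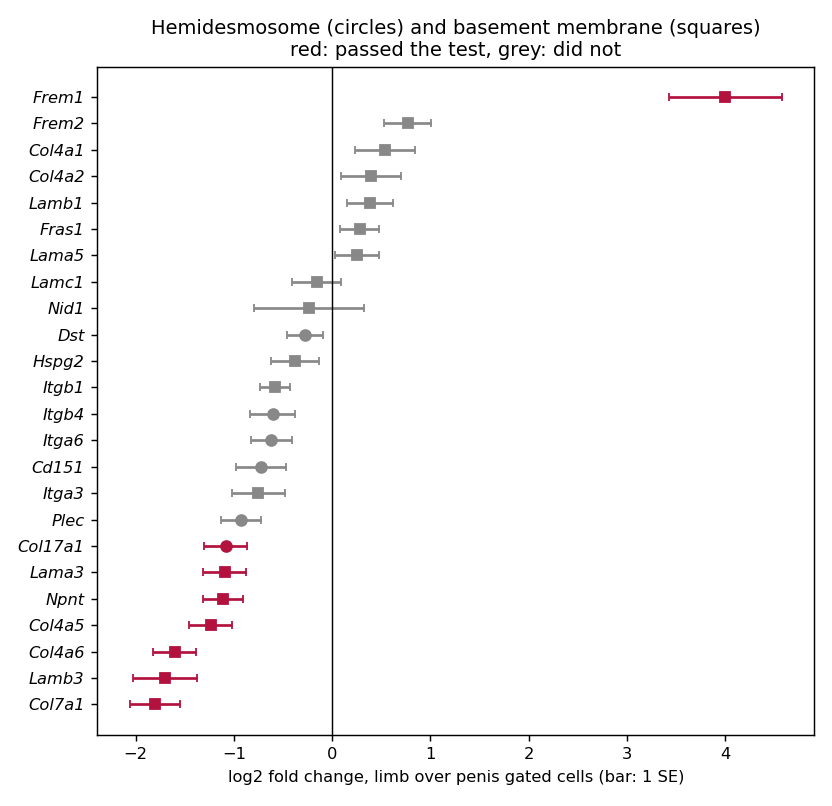
log2 fold change of limb over penis gated cells, with bars of 1 SE from edgeR, for the 6 hemidesmosome genes (circles) and 18 of the basement membrane genes (squares), called genes in red and others in grey. *Frem1* stands alone on the right at 4.00, and the lower calls run from -1.80 for *Col7a1* to -1.08 for *Col17a1*.

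Junction genes went both ways. Of 18 tested, 6 were higher in limb and 2 lower, with a median log2 fold change of 0.46 (-0.11 without the 13 cells). Over all genes tested, 1.97% were higher and 3.06% lower. The gap junction channels were higher together: *Gjb2* (4.02), *Gjb6* (2.20) and *Gja1* (1.69). *Gja1* had 278 and 320 CPM in limb against 85.0, 85.6 and 93.2. *Epcam* had 445 and 302 CPM against 154, 152 and 173 (1.16 ± 0.18). The tight junction genes *Cldn1* (3.35) and *Cldn3* (2.51) were also called, and the 13 cells had 320 and 146 CPM of *Cldn1* and 1368 and 950 CPM of *Cldn3*. Without these cells *Cldn1* had 4.57 and 18.1 CPM and *Cldn3* no UMI in limb, and both were too low to test. The desmosomal genes *Dsc3* (-1.86) and *Pkp1* (-1.26) were lower. *Gjb2* and *Gja1* kept the call without any one library, and the other 6 lost it without at least 1, with edgeR adjusted p of 0.0103 to 0.0628.

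*Fxyd3*, a regulator of the sodium pump in epithelia and one of the 12 epidermal genes outside the gate, had 123 and 140 CPM in limb against 936, 840 and 924 (log2 fold change -2.85 ± 0.15, edgeR adjusted p 1.25e-06). Thinned to 2000 UMIs it had a UMI in 23.3% and 27.5% of gated limb cells and in 65.8%, 69.5% and 72.3% of gated penis cells.

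Wnt genes differed in a few members. Of 11 ligands tested, *Wnt6* and *Wnt16* were higher in limb and *Wnt10a* lower, with a median log2 fold change of 0.84. Over all genes tested, 1.97% were higher and 3.06% lower. *Wnt6* had 223 and 255 CPM against 101, 72.7 and 106 (1.29 ± 0.18), *Wnt16* 31.8 and 35.1 CPM against 2.13, 0.920 and 1.37 (4.29 ± 0.58), and *Wnt10a*, a ligand of skin appendages, 25.4 and 30.4 CPM against 83.9, 74.5 and 79.5 (-1.58 ± 0.25). *Wnt4*, with 235 and 255 CPM, and *Wnt3*, with 76.3 and 74.8 CPM, were not called (-0.21 and 0.33). The 3 calls were each lost without a limb library (edgeR adjusted p 0.0206 to 0.0351). Of 13 receptors, carriers and targets, *Lef1* alone was called, and *Axin2*, the feedback inhibitor of the pathway, had 1.56 with an edgeR adjusted p of 0.0225.

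Other signals were mixed. Of 17 BMP and TGF-beta genes, 3 were higher and none lower: *Bmp7* (1.39), *Tgfb2* (1.54) and the receptor *Bmpr1b* (1.03), and each lost its call without either limb library (edgeR adjusted p up to 0.0755). Of 4 FGF genes, *Fgfbp1* was higher (2.04, and 1.20 without the call when the 13 cells were left out), and *Fgfr2*, the epidermal FGF receptor, had 437 and 440 CPM against 646, 489 and 724 (-0.57). None of 6 Notch genes or 7 EGF genes was called. These lists had medians of 0.21, -0.28, -0.28 and -0.18, and of all genes tested 1.97% were higher and 3.06% lower.

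Secreted factors had 5 genes higher and 1 lower of 12 tested, against 1.97% and 3.06% of all genes tested. *Cxcl14* had 1546 and 1545 CPM in limb against 363, 293 and 502 (1.94 ± 0.17, edgeR adjusted p 4.89e-05) and kept its call without any one library. *Pdgfa* (1.08), the stem cell factor *Kitl* (1.70) and the neurotrophin *Ntf3* (1.61) were among those higher, and *Edn1*, the endothelin of melanocyte and vessel signalling, lower (-2.87). The calls of these 4 genes were lost without the forelimb and without the hindlimb library, with edgeR adjusted p of 0.00409 to 0.0935 over the libraries whose loss ended a call, and at the lowest of these the fold fell under the limit. The list's median was -0.17.

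Transcription factors of the epidermis were mostly alike in level. Of 18 tested, 1 was higher and 3 lower (median 0.09), against 1.97% and 3.06% of all genes tested. *Hoxc13*, a factor of hair and nail, had 38.2 and 30.4 CPM in limb and 0, 0.920 and 0 CPM in penis (5.95 ± 0.77), from 11 forelimb and 6 hindlimb cells, and was too low to test without the forelimb library. Among those lower, *Barx2* had 112 and 101 CPM against 352, 318 and 367 (-1.77 ± 0.16), and *Klf5*, a factor of proliferating basal cells, 93.3 and 140 CPM against 282, 246 and 322 (-1.35 ± 0.19). Without the forelimb library *Klf5* was at -1.10 and not called (edgeR adjusted p 0.0228). *Tfap2a*, *Tfap2b* and *Grhl2* had -0.24 to 0.46 and were not called. Of 8 tested limb identity and Hox genes, *Hoxd9* was lower (-4.16), and it lost the call without the hindlimb library (edgeR adjusted p 0.0336).

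Of 9 tested genes of embryonic growth and timing, 5 were higher in limb and none lower, with a median log2 fold change of 1.55. Over all genes tested, 1.97% were higher. *Hmga2*, a chromatin protein of embryonic cells, had 159 and 306 CPM against 43.6, 34.04 and 27.4 (2.62 ± 0.28), *Mest*, an imprinted growth gene, 235 and 138 CPM against 32.9, 21.2 and 21.9 (2.80 ± 0.29), and *Igf2bp2* 161 and 168 CPM against 55.3, 49.7 and 54.8 (1.55 ± 0.18). *Igf2bp1* (2.35) and *Igf2* (1.85) were called and lost the call without the forelimb library. *Igf2*, *Mest* and *Dlk1* are also mesenchymal, with 767, 661 and 1199 CPM in the other forelimb cells. By the main interaction fit described below, 5 of 10 genes of this list were less limb-high in the gated than in the other cells, and none more. They were *Hmga2*, *Igf2bp1*, *Igf2bp3*, *H19* and *Peg3*. Over all genes of that fit, 1.51% were less limb-high and 1.84% more.

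Of 10 division genes, *Birc5* (2.01 ± 0.24) and *Ube2c* (1.79) were called higher, and the list had a median of 1.52. Over all genes tested, 1.97% were higher. *Birc5*, a subunit of the chromosomal passenger complex, had 168 and 173 CPM in limb against 54.2, 30.4 and 35.6. *Mki67* and *Top2a* had 1.02 and 1.03 and were not called. Of 10 DNA replication genes none was called (median 0.71). *Ube2c* lost its call without either limb library and without penis 2 or 3 (edgeR adjusted p 0.0112 to 0.0780).

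Lists of cell handling and of other cell types were tested too. None was called of 10 stress genes (median -0.27), of 7 MHC class I and interferon genes, of 6 mesenchyme genes (0.10), of 4 endothelial, 3 myeloid or 4 red blood cell genes. Of 4 cartilage genes, *Col2a1* (3.66) and *Col9a3* (2.65) were higher, against 1.97% of all genes tested. In each limb 1 cell held most *Col2a1* UMIs. *Col9a3* lost its call without the forelimb library (edgeR adjusted p 0.0229) and without the hindlimb library (0.0466).

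Whether a limb and penis difference was particular to the gated cells was asked by comparing it with the same difference in the other kept cells, in 1 model with each library as a block (the interaction). Of 19893 genes, 367 (1.84%) were more limb-high in the gated cells and 300 (1.51%) less. This fit took nearly all of its spread from the trend over all genes (prior degrees of freedom 932), so its p-values hold little of the spread of a single gene between libraries. The smallest were those of the globins *Hbb-bs*, *Hba-a1*, *Hbb-bt* and *Hba-a2*, with interactions from -4.07 to -4.32, although gated forelimb and hindlimb cells had 5848 and 568 CPM of *Hbb-bs* and 1542 and 145 CPM of *Hba-a1*. With the adjusted deviance of edgeR, an alternative chosen after seeing the data (prior degrees of freedom 7.42), 126 genes were more limb-high and 120 less, and the globins were not called. *Kcnh7* had an interaction of 5.80 on the log2 scale, with 6.48 and 4.59 CPM in the other limb cells and 0.133, 0.238 and 0.373 in the other penis cells. It was called in both fits, but not with a gate that allowed no differentiation gene. *Col19a1* had 5.51 and *Tac1* -7.06. The counts include genes of the gate, which are no result, since the gate chose the cells by them.

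Forelimb and hindlimb gated cells were compared with 1 library each, so there is no test. Of 3974 genes at 50 CPM or more, 82 (2.06%) were at least 2-fold higher in forelimb and 71 (1.79%) in hindlimb, with 5 CPM added. Of the 20 named by size, 10 had more than 50% of their UMIs in a single cell. *Cma1* had 170 of its 179 forelimb UMIs in 1 cell, *Cpa3* 119 of 126 in 1 cell, and *Krt13*, a keratin of wet squamous epithelia, 74 of 78. *Hbb-bs*, a beta globin, had 1321 of 2758 (47.9%) in 1 cell. In hindlimb, *Cxcl2* had 33 of 34 UMIs in 1 cell and *Pf4* 25 of 28.

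**Figure D5:**
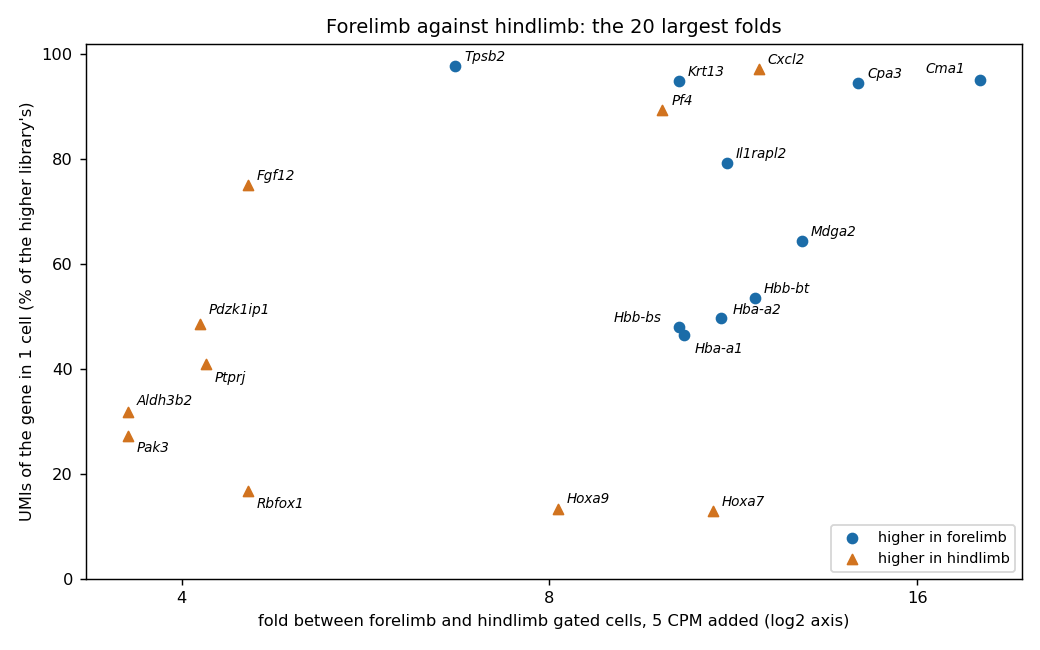
Fold between forelimb and hindlimb gated cells (5 CPM added, log2 axis) against the share of the higher library's UMIs held by 1 cell (%), for the 10 largest folds in each direction, with forelimb-high genes as circles and hindlimb-high genes as triangles. *Hoxa7* and *Hoxa9* combine a fold of 10.9 and 8.13 with a low share in any 1 cell, whereas *Cma1*, *Cpa3*, *Krt13* and *Cxcl2* lie near the top.

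*Hoxa7* and *Hoxa9*, patterning genes of the HoxA cluster, were spread over many hindlimb cells. *Hoxa7* had 1 UMI in 1 forelimb cell (2.12 CPM) and 31 UMIs in 19 hindlimb cells (72.5 CPM, exact 95% Poisson interval 49.2 to 103). *Hoxa9* had 2 UMIs in 2 forelimb cells (4.24 CPM) and 30 in 17 hindlimb cells (70.1 CPM, 47.3 to 100.1). *Rbfox1*, a splicing regulator, had 4 UMIs in 2 forelimb and 24 in 12 hindlimb cells, and *Pak3*, a kinase of the cytoskeleton, 5 in 5 and 22 in 11. In the other kept limb cells the limbs were closer, with 9.73 and 6.05 CPM of *Hoxa7* and 24.1 and 26.2 CPM of *Hoxa9*. The gated penis cells had 139, 130 and 152 CPM of *Hoxa9*. *Tbx5*, the forelimb identity factor, had 13 UMIs in 9 gated forelimb cells and 1 in hindlimb. *Pitx1*, a hindlimb factor, had none in forelimb and 4 UMIs in hindlimb (9.35 CPM), and *Tbx4* none and 1.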

How the data were processed

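Forelimb, hindlimb and penis without prepuce were dissociated and sequenced with the 10X 3′ v3.1 kit. The deposited matrices hold raw UMI counts per gene and barcode, which the authors made with Cell Ranger 7.0.0 on mm10. Whether intron reads were counted is not given in the sources used here. Files were matched to samples by the labels. All matrices were read with Python 3.11.15 (numpy 2.4.6, pandas 2.3.3, scipy 1.17.1) and drawn with matplotlib 3.10.9. The members and the gene lists were chosen with earlier results of these data known. Limb cells were kept at 100 to 9000 genes and at most 10% mitochondrial UMIs, penis cells at 500 to 6000 genes and at most 5%. The study states such limits as reads per cell, here read as detected genes with an upper limit of 9000 for both limbs (9500 in the study for hindlimb), and a limit on genes per UMI, here used only as an alternative. Doublets were not called, and cells with 4 or more of 6 mesenchyme genes were left out as an alternative.

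UMI counts of the gated cells were summed per library and tested with edgeR 4.0.16 in R 4.3.3 (TMM scaling, filter on low counts, quasi-likelihood test, Benjamini-Hochberg adjustment), with DESeq2 1.42.0 and, added after seeing the data, edgeR's adjusted deviance and robust prior as alternatives. The interaction used 10 sums, gated and other cells of 5 libraries, with library as a block. The tests were tested on simulated data first. Genes were named by list, by the 15 largest and 15 smallest called limb and penis fold changes at 50 CPM or more, by the 6 largest and smallest interactions, by the 30 leading folds over other limb cells and by the 10 largest folds each way between limbs. Differences that the gate made, and those between single libraries, were not tested. Shares were compared by the exact permutation test over libraries. Shares thinned to 2000 UMIs are expected values over all draws. Exact 95% intervals are Clopper-Pearson for shares and Poisson for counts. The library totals were 156060382 UMIs in forelimb and 162335993 in hindlimb. Sequences are RefSeq promoters on GRCm38.p6. Some genes that these rules choose are not reported here.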

Additional observations from a re-analysis of the deposited data

Results flagged for a closer look

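The limb and penis difference was not the same in gated and other cells for 367 genes that were more limb-high in the gated cells and 300 genes that were less so, by the interaction test of edgeR. In each case the test of the difference itself raised the result. Its p-values hold little of the spread of a single gene between libraries, and with the adjusted deviance of edgeR 126 and 120 genes were called. Of the 12 genes below, 6 kept the call under each alternative that gave them a value. The values below are interactions on the log2 scale.

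*Cnfn* had 16.86 and *Spink5*, a protease inhibitor of the upper epidermis, 5.56. The 13 cells with *Krt4* and *Krt19* held 99.2% and 98.0% of their gated limb UMIs, and without these cells neither was called (edgeR adjusted p 0.215 and 0.89). *Slc2a3* had 6.12, with 81.8% of its UMIs in the same cells, and *Cma1* had 11.27, with 91.4% of its UMIs in 1 cell. With the limits of the limb cells in penis the value for interaction, Cma1 was -0.999, a turned direction. *Cnfn* and *Cma1* had no UMI in gated penis cells, so the size of these 2 values depends on the prior count and is no bound. *Kcnh7* had 5.80 and *Col19a1* 5.51, with none of their gated limb UMIs in the 13 cells.

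*Fgf14* (-15.00), *Hoxd8* (-14.19) and *Slc5a7* (-13.06) had no UMI in gated limb cells, so the size of these values depends on the prior count and is no bound. *Tac1* had -7.06, *Ccbe1*, a gene of lymphatic growth, -6.73, and *Tmem117* -6.13. *Ccbe1* had 2.12 and 2.34 CPM in gated limb cells, 21.9 and 25.0 CPM in other limb cells, and 117, 98.5 and 98.7 CPM in gated penis cells.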

How the results depend on the processing

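No paired analysis was possible because the limb libraries came from embryos and the penis libraries from males at P6. The share of basal cells among kept forelimb cells moved to 0.398% with 3 of 6 epithelial genes, 0.1199% with 5 of 6, 0.131% with no differentiation gene and 0.124% with the gate after thinning. The share of basal cells among kept hindlimb cells moved to 0.384, 0.130, 0.134 and 0.146%. Dividing shares were 54.7 and 61.4% unthinned, and 57.3% in forelimb with 1 division gene. Genes higher and lower in limb numbered 387 and 518 with no filter, and 13 and 27 with no differentiation gene, where interactions more and less limb-high numbered 88 and 72. The more limb-high numbered 192 with 3 of 6 genes, the less limb-high 165 with DESeq2. With the adjusted deviance of edgeR, chosen after seeing the data, the more and less limb-high numbered 126 and 120. With each library left out in turn, higher genes ranged from 73 to 207, lower from 114 to 294, more limb-high from 215 to 378 and less limb-high from 173 to 274. Without forelimb the more limb-high numbered 226, without hindlimb the less limb-high 173, and without penis 3 the more and less limb-high 215 and 198.

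Direction turned for few genes. With the gate after thinning, *Hba-a1* was at 4.24, *Hba-a2* at 4.15 and *Psca* at 5.49. *Ppl* was at -0.52 with 5 of 6 genes and -0.64 with no differentiation gene. Without the 13 cells, an alternative chosen after seeing the data, *Krt6a* was at -0.96 and *Ppl* at -1.54. With limb limits in penis the value for interaction, Cma1 was -0.999. The cause was not tested.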
